A study of Caenorhabditis elegans with 4 samples.

Results

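Chromosome X carried 356 of the 2590 binding regions (13.7%) in the combined list for R02D3.7, which RefSeq now calls rcat-1, in L4 larvae of Caenorhabditis elegans. Every record of that list placed on X was taken, so the choice used no measured value. X also carried 157 of the 1251 peaks listed for ChIP replicate 1 and 105 of the 810 listed for ChIP replicate 2. All worms were hermaphrodites of strain OP218 at the L4 stage, grown at 20 °C, with the genotype unc-119(ed3) and the transgene wgIs218, which holds R02D3.7 fused to TY1, EGFP and FLAG together with an unc-119 rescue copy. The study has 4 libraries, which are 2 chromatin immunoprecipitations (ChIP) with antibodies to GFP and 2 inputs, the inputs being unselected DNA of the same extracts. A single transgenic strain was used, so the peaks describe a tagged protein made from a bombarded transgene, and no peak list of a strain without the tag was analysed here. Positions are on WormBase WS190.

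ChIP-seq sequences the DNA that stays crosslinked to a protein, and a peak is a stretch where those reads exceed a control. In C. elegans, hermaphrodites carry X as a pair and males carry it singly. A condensin-like dosage compensation complex loads onto both X chromosomes of hermaphrodites and lowers their transcription. In the germ line, which is growing at the L4 stage, X is largely silent, and genes used mainly there are scarce on it. The labels call R02D3.7 a transcription factor and give no target genes. The peak lists pair no peak with a gene and no annotation of WS190 was used, so the regions are given by position. Each has a q-value from the authors' peak caller, a p-value adjusted for the regions tested, and strength below is its -log10. Reads per peak are not part of the lists, and the depth behind each value is unknown.

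In short, X had fewer peaks per Mb than any autosome, and they were narrower, farther apart and less often strong. Within bands of strength, the shares of X and autosomal peaks with a counterpart in both replicate lists had overlapping intervals. In the open top band, though, X peaks were the weaker ones. Tests compare X with the 5 autosomes pooled. Peaks are not replicates and neighbouring peaks are related, so these p-values are too small and describe the lists. A single X leaves no test over chromosomes, and the range over the 5 autosomes is given in its place. Whether the 2 ChIP libraries came from separate cultures is not given in the labels.

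The strongest region on X lay at 16929424 to 16931922, near the right end, and was 2499 bp wide. The combined q-value was 2.15e-126, that of replicate 1 was 9.01e-69 and that of replicate 2 was 1.78e-53, and it ranked 18, 24 and 16 among all peaks of those lists. In each replicate list 2 peaks overlapped it. No other combined peak lay within 165 kb. The second region, at 15848875 to 15850055, was 1181 bp wide and had a combined q-value of 4.28e-75, with 1.18e-43 for replicate 1 and 2.07e-29 for replicate 2. These were the only X peaks among the 100 strongest of the combined list, where X accounted for 13.7% of all peaks. The 100 strongest peaks of replicate 1 included 3 on X, and those of replicate 2 included 2.

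A group of 4 regions followed at intermediate strength. The peak at 11605314 to 11606447 had a combined q-value of 3.31e-39, with 2.51e-29 for replicate 1 and 1.52e-13 for replicate 2. That at 8421577 to 8422879 had values of 5.91e-39, 4.85e-23 and 1.08e-11 in the same order. Both had another combined peak close by, at 1.44 kb and 0.417 kb. The peak at 3159204 to 3160044, the only one of these 4 in the left 25% of X, had values of 1.97e-35, 1.37e-23 and 2.82e-12. The last, at 8791441 to 8792229, had values of 1.57e-32, 6.61e-23 and 1.44e-11.

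The remaining 6 of the 12 strongest X peaks found in both replicates had combined q-values from 5.04e-25 to 6.62e-15. They lay at 17408755 to 17409279, 10197185 to 10197696, 5279086 to 5279813, 9441364 to 9441809, 13396362 to 13396939 and 8036112 to 8036943. All 12 had a smaller q-value in replicate 1 than in replicate 2, a difference that can come from depth as much as from binding. The last of them was nearly equal in the replicates, at 1.15e-07 and 1.21e-07. The 12 peaks were 446 to 2499 bp wide, and their centres lay 1 to 165 bp from the centre of the replicate 1 partner and 2.5 to 202.5 bp from that of replicate 2. A combined peak lay within 2 kb of 2 of the 12, and of 71 of all 356 X peaks (19.9%).

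**Figure D1:**
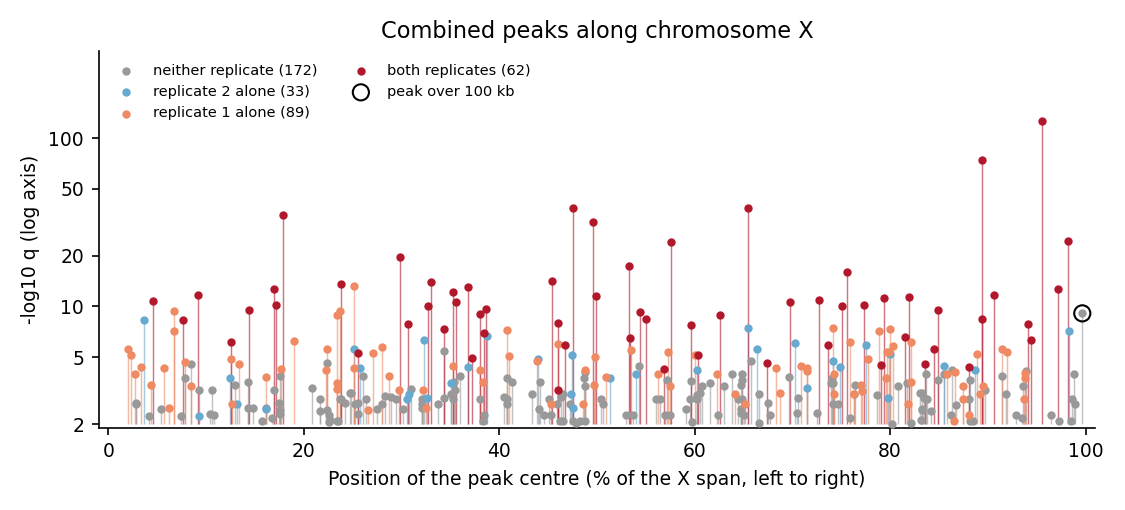
Each point is 1 of the 356 combined peaks on X, placed by its centre in percent of the X span (horizontal) and by its -log10 q on a log axis (vertical), with colour for the replicate lists it overlaps. The 62 peaks found in both replicates are spread along the whole chromosome and include the tallest, while the circled peak over 100 kb at the right end overlaps neither list.

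Peaks were sparse on X but present along its whole length. Over a span of 17.7 Mb, counted from base 1 up to where the last peak of any list ended, the density was 20.1 combined peaks per Mb, compared with 22.5 on V and 38.1 on III, the lowest and highest autosomes. Pooled, the autosomes had 27.1 per Mb, so the density on X was 0.741 times theirs (exact 95% interval 0.661 to 0.829; exact binomial test, p = 6.20e-08). Since III was the densest autosome, the comparison was repeated without it, and the ratio was 0.806 (interval 0.717 to 0.904; exact binomial test, p = 0.000169). In replicate 1 the density was 8.86 per Mb on X and 13.3 on the autosomes, a ratio of 0.667 (0.561 to 0.789; exact binomial test, p = 7.91e-07). In replicate 2 it was 5.93 and 8.56, a ratio of 0.692 (0.559 to 0.851; exact binomial test, p = 0.000272). Without III the replicate 1 ratio was 0.737 (0.617 to 0.875; exact binomial test, p = 0.00032). That of replicate 2 was then 0.788 (0.633 to 0.974; exact binomial test, p = 0.0253). Chromosome I, at 5.97 per Mb, was about as sparse as X in replicate 2. Combined peaks found in both replicates numbered 3.50 per Mb on X and 5.91 on the autosomes, a ratio of 0.592 (0.447 to 0.772; exact binomial test, p = 4.22e-05).

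Along X, 179 of the 356 combined peaks were in the left 50% of the span, a share of 50.3% (exact 95% interval 45.0 to 55.6), which did not depart from an even division (exact binomial test, p = 0.958). The same part held 73 of 157 in replicate 1 (46.5%; exact binomial test, p = 0.425) and 52 of 105 in replicate 2 (49.5%; exact binomial test, p = 1). In 4 parts of equal length from left to right, the combined list had 75, 104, 84 and 93 peaks, of which 6, 11, 5 and 10 were strong, meaning a q-value under 1e-10. The leftmost part also had the fewest peaks in both replicates, with 32 and 14. The first combined peak began at 353227 and was 311 bp wide.

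Windows of 1 Mb held 11 to 32 combined peaks, with a median of 20 over the 17 whole windows, and none was empty. The fullest ran from 8 to 9 Mb and held 32 peaks, 7 of them found in both replicates. The windows from 4 to 5 Mb and from 14 to 15 Mb followed with 29 peaks each, of which 2 and 6 were found in both. The window from 7 to 8 Mb, picked after its values were seen, had 14 combined peaks, none of them in both replicates. It held 3 and 1 peaks in the replicate lists. Over the whole of X, 62 of 356 combined peaks (17.4%) were in both, so few are due in a window of 14. The variance of the window counts was 1.93 times their mean on X, against 2.43 on IV to 4.71 on II among the autosomes. This ratio depends on the mean count, which is lowest on X. The SD of the window counts was 0.308 of their mean on X, inside the autosomal range of 0.257 on III to 0.424 on II.

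Spacing differed more than number. The median gap between neighbouring combined peaks was 31.0 kb on X (quartiles 8.59 and 63.3 kb), whereas it ran from 10.1 kb on III to 18.1 kb on IV among the autosomes. Mean gaps were closer, at 48.4 kb on X and up to 44.2 kb on V. The median was therefore 0.641 of the mean on X and 0.389 to 0.420 of the mean on the autosomes. For gaps drawn from an exponential distribution, which peaks placed independently at an even rate would give, the ratio is 0.693. In replicate 1 the ratio was 0.644 on X and 0.456 to 0.582 on the autosomes. In replicate 2 it was 0.626 on X, inside the autosomal range of 0.426 to 0.632.

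The gap distributions separated at short distances. On X, 71 of 356 peaks (19.9%, Wilson 95% interval 16.1 to 24.4) had another combined peak within 2 kb, compared with 821 of 2234 on the autosomes (36.8%, interval 34.8 to 38.8; two-sided Fisher's exact test, adjusted p = 8.79e-10 over 6 shares). The share was 34.4% over the whole list and 32.2% to 40.2% on the single autosomes. In replicate 1 it was 10.8% on X against 25.4% for the autosomes (Fisher's exact test, adjusted p = 8.50e-05 over 4 shares), and in replicate 2 it was 10.5% and 23.1% (Fisher's exact test, adjusted p = 0.00293 over 4 shares). A sparser chromosome has fewer near neighbours for the same pattern, so the limit was also set to 0.1 of each chromosome's own mean gap. By that measure 32.6% of X peaks but 46.6% of autosomal peaks had a neighbour (Fisher's exact test, adjusted p = 4.37e-06 over 6 shares).

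The scarcity of near neighbours held for strong and weak peaks. Among strong peaks, 5 of 32 on X (15.6%) had a neighbour within 2 kb, against 157 of 339 elsewhere (46.3%; Fisher's exact test, p = 0.000656). Among the rest, the numbers were 66 of 324 (20.4%) and 664 of 1895 (35.0%; Fisher's exact test, p = 9.41e-08). On X, 30 runs of peaks no more than 2 kb apart were found, 21 of them pairs and none longer than 4 peaks. The autosomes had 61 to 88 runs each, with the longest run of 4 to 9 peaks. The 2 runs of 4 on X lay at 7230417 to 7232257 and 13143953 to 13145564, and neither held a peak found in both replicates. Their smallest q-values were 6.31e-08 and 3.75e-08. Of all combined X peaks 17.4% were found in both replicates, and some but not all runs of 3 on X also held none.

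At the closest, neighbouring X peaks were 208, 216 and 225 bp apart. The first pair, with a left peak at 13143953 to 13144189 and a right one at 13144398 to 13144499, was weak on both sides. In the second, a strong peak at 2996797 to 2997317 (q = 2.06e-13), found in both replicates, had a weak one to its left at 2996441 to 2996580 (q = 0.000649), found in neither. The third joined a peak at 4526316 to 4526618 (q = 4.96e-06), found in both replicates, to one of 50 bp at 4526041 to 4526090. No gap on any chromosome was under 200 bp in the combined list. The longest gaps between neighbouring combined peaks on X were 363 kb from 7323948 to 7686992, 326 kb from 3371519 to 3697872 and 314 kb from 6868018 to 7181648. The stretch from base 1 to the first combined peak, which began at 353227, is not counted among these gaps. X held 50 gaps over 100 kb, 14.1% of its 355 gaps, which was next to the 13.9% on IV and above the 4.97% on III, the lowest share.

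**Figure D2:**
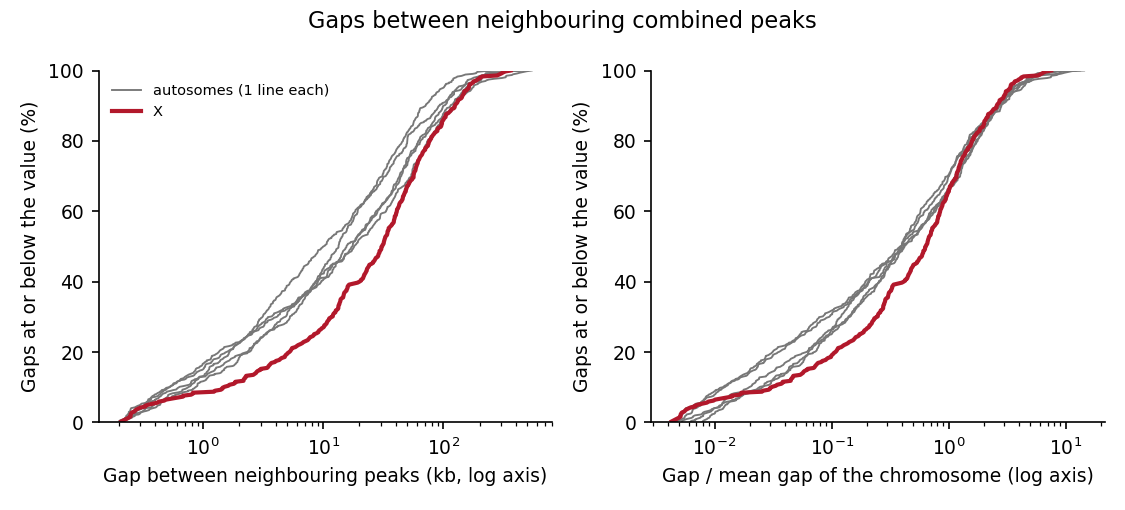
Cumulative share of gaps between neighbouring combined peaks (vertical, %) against gap length in kb (left, log axis) and against gap length divided by the chromosome's mean gap (right, log axis), with X in red and each autosome in grey. The X curve runs below all autosomes over most of the range up to its median of 31.0 kb, and it stays below them near 0.1 of the mean gap.

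X peaks were mostly narrower than autosomal ones. The median width on X was 166 bp (quartiles 61.75 and 299.5 bp), below the autosomal medians of 180 bp on V to 239 bp on I. In replicate 1 it was 199 bp on X and 200 to 389 bp on the autosomes, and in replicate 2 it was 200 bp on X and 200 to 364 bp on the autosomes. The upper end differed more. A width of 500 bp or more was reached by 33 X peaks (9.27%, Wilson interval 6.68 to 12.7) and by 408 autosomal peaks (18.3%, interval 16.7 to 19.9; Fisher's exact test, adjusted p = 3.96e-05). This share was 17.0% over the whole list and 16.2% to 20.3% on the single autosomes. In replicate 1 it was 12.1% on X against 25.9% for the autosomes (Fisher's exact test, adjusted p = 0.000178), and in replicate 2 it was 5.71% and 23.4% (Fisher's exact test, adjusted p = 3.44e-05). Only 6 X peaks were 1 kb or wider (1.69%), compared with 134 autosomal peaks (5.998%). The strongest X peak, at 2499 bp, was nevertheless within the 2160 to 5346 bp of the widest peaks on the single autosomes.

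Very short peaks were more common on X in the combined list. There, 78 X peaks (21.9%, interval 17.9 to 26.5) were shorter than 50 bp, against 337 autosomal peaks (15.1%, interval 13.7 to 16.6; Fisher's exact test, adjusted p = 0.00269). The share was 16.0% over the whole list and at most 17.5% on a single autosome. In the replicates the shares were 12.1% on X against 7.86% for the autosomes (Fisher's exact test, adjusted p = 0.0888), and 9.52% and 6.81% (Fisher's exact test, adjusted p = 0.311). Neither passed the threshold of 0.05, and both replicate values on X lay inside the range of the single autosomes. Among combined peaks with q under 0.001 the difference did not pass either, with a share on X 1.17 times the autosomal one (Fisher's exact test, adjusted p = 0.621).

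Far outside this range was the last combined peak on X, at 17601432 to 17718834, which was 117 kb wide and the only peak over 100 kb in any list. It was 47.0 times as wide as the next X peak, and the widest autosomal peak measured 5346 bp. Its q-value of 8.07e-10 ranked 39 on X and 416 in the whole list. It overlapped no peak of either replicate and had the smallest q-value of the 172 X peaks found in neither. The nearest combined peak was 74.3 kb to its left, at 17527164 to 17527171, and the furthest replicate peaks on X ended 192 kb and 181 kb to its left. It made up 59.9% of the X length covered by peaks. With it, combined peaks covered 195.9 kb of X, or 1.11% of the span. Without it they covered 78.5 kb, or 0.448% of the 17.5 Mb up to the end of the last other peak. That was less than the 0.662% to 1.17% on the autosomes. The mean width on X fell from 550.3 to 221 bp when it was left out, against 294 to 374 bp on the autosomes, while the median stayed at 166 bp.

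**Figure D3:**
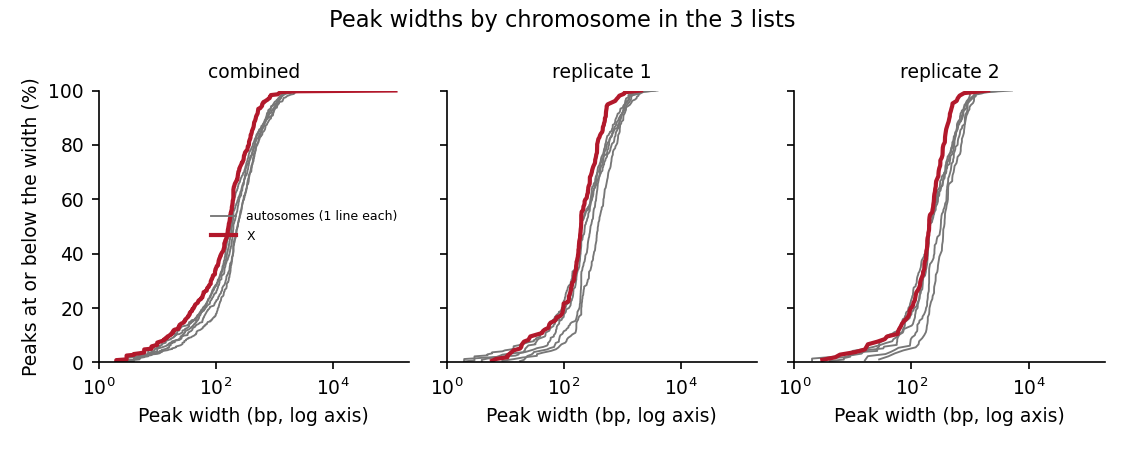
Cumulative share of peaks (vertical, %) against peak width in bp (log axis) in the combined list and the replicate lists, with X in red and each autosome in grey. In each list the X curve is to the left of the autosomes at widths around 500 bp, and in the combined list it carries a tail to the 117 kb peak.

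Strength on X was ordinary in the middle of the combined list and low at the top. The median -log10 q of X peaks was 3.51 in the combined list, inside the autosomal range of 3.39 to 3.64. In replicate 1 it was 3.02, just below the autosomal range of 3.09 to 3.71, and in replicate 2 it was 2.99, level with III at 2.99, the lowest of the autosomes. At the top, 32 X peaks were strong (8.99%, interval 6.44 to 12.4), against 339 autosomal peaks (15.2%, interval 13.7 to 16.7; Fisher's exact test, adjusted p = 0.00269). This share was 14.3% over the whole list and 14.3% to 16.4% on the single autosomes. X had 12 strong peaks in replicate 1 (7.64%, against 17.5% to 19.5% on the autosomes) and 6 in replicate 2 (5.71%, against 16.9% to 22.2%). The difference also showed among peaks found in both replicates, where 31 of 62 on X (50%) and 316 of 487 elsewhere (64.9%) were strong (Fisher's exact test, p = 0.0254).

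Width and strength go together in these lists, so widths were set side by side within bands of -log10 q. From 2 to 3, the median width was 50 bp for 131 X peaks and 99 bp for 831 autosomal peaks. From 3 to 5 it was 177 bp for 129 X peaks and 198 bp for 711 autosomal ones, and from 5 to 10 it was 366.5 bp for 64 and 396 bp for 353. At 10 and above it was 555.5 bp for 32 X peaks and 879 bp for 339 autosomal ones, but this open band does not hold strength alike, since its median -log10 q was 12.9 on X and 24.5 on the autosomes. Divided at 20 after the values were seen, its lower part had median widths of 526 bp for 24 X peaks (median -log10 q 11.7) and 632 bp for 149 autosomal ones (12.6). Its upper part had 987.5 bp for 8 X peaks (36.5) and 1109.5 bp for 190 autosomal ones (44.2). In the band from 2 to 3 X lay below each autosome, whose medians were 70 to 142 bp. In the bands from 3 to 5 and 5 to 10, V had lower medians than X, at 170.5 and 360.5 bp. Strong peaks on X, weaker in the median as given above, reached 500 bp in 23 of 32 cases (71.9%) and autosomal ones in 298 of 339 (87.9%; Fisher's exact test, p = 0.02504). Peaks with larger q-values reached it in 3.09% and 5.80% of cases (Fisher's exact test, p = 0.0459).

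**Figure D4:**
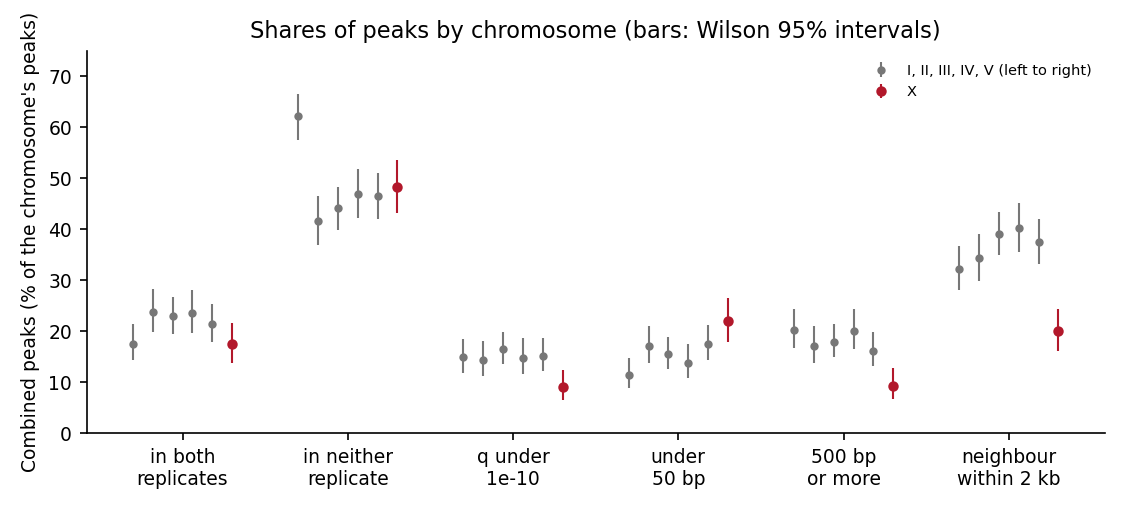
Share of each chromosome's combined peaks (vertical, %) that meet each of 6 criteria, with I to V in grey from left to right, X in red, and Wilson 95% intervals as bars. X lies below all autosomes for near neighbours (19.9%), for widths of 500 bp or more (9.27%) and for strong peaks (8.99%), and it is within their range for peaks found in neither replicate (48.3%).

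Overlap with the replicate lists was counted from 1 bp. The combined list draws on the same 2 ChIP libraries as the replicate lists, so a counterpart there is not an independent finding. Of the 356 combined X peaks, 62 had a counterpart in both replicates, which is 17.4% (Wilson interval 13.8 to 21.7). Another 89 had one in replicate 1 alone (25%) and 33 in replicate 2 alone (9.27%), while 172 had none (48.3%, interval 43.2 to 53.5). On the autosomes 21.8% overlapped both (interval 20.1 to 23.6; Fisher's exact test, adjusted p = 0.0831) and 48.3% neither (interval 46.2 to 50.3; Fisher's exact test, adjusted p = 1). Over the whole list these shares were 21.2% and 48.3%, and on the single autosomes they ran from 17.6% on I to 23.8% on II and from 41.6% to 62.2%. The share of peaks with a counterpart in replicate 1 alone was 18.0% to 24.8% on the single autosomes, just under the 25% of X. That share was not tested. For overlap with both replicates and with neither, the difference did not pass the threshold, which does not show that the shares are equal. Chromosome I had the 62.2% found in neither. Without it the comparison for peaks in both replicates passed, with a share on X 0.762 times that of the 4 other autosomes (Fisher's exact test, adjusted p = 0.0297). Of the 6 alternative runs for this share, it was the only 1 to pass.

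Nearly all strong X peaks had a counterpart in both replicate lists, which come from the same 2 ChIP libraries as the combined list. Of the 32 strong ones, 31 overlapped both replicates (96.9%, interval 84.3 to 99.4), and of the 339 strong autosomal peaks, whose median strength was higher, 93.2% did (interval 90.0 to 95.4). For -log10 q from 10 to 20 the numbers were 23 of 24 on X and 126 of 149 on the autosomes. The exception, at 4457701 to 4458306 (q = 7.19e-14), overlapped a replicate 1 peak with a q-value of 4.38e-11 and no replicate 2 peak. Between -log10 q of 5 and 10, 24 of 64 X peaks (37.5%, interval 26.7 to 49.7) and 39.7% of autosomal peaks (34.7 to 44.8) were in both. Between 3 and 5 the shares were 5.43% (2.65 to 10.8) and 3.94% (2.74 to 5.63). Below 3, none of 131 X peaks and 3 of 831 autosomal peaks were in both. Ranked among themselves, 24 of the first 25 X peaks were in both replicates, 20 of the next 25, 12 of the next 50, 5 of the next 100 and 1 of the last 156.

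For the X peaks found in both replicates, strength had a median of 9.86 and width one of 447 bp, against 13.7 and 678 bp on the autosomes. Those found in neither had medians of 2.82 and 81 bp, against 2.66 and 117 bp. After the 117 kb peak, the strongest X peaks found in neither lay at 6091977 to 6092176 (q = 3.55e-06), 11645426 to 11645726 (q = 1.94e-05), 3969984 to 3970376 (q = 2.51e-05) and 1503976 to 1504447 (q = 2.85e-05). They were 200 to 472 bp wide. The first and the third of these 4 had another combined peak 0.248 and 0.271 kb away.

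Between the replicate lists themselves, 61 of the 157 replicate 1 peaks on X overlapped a replicate 2 peak (38.9%, interval 31.6 to 46.7), against 40.8% to 48.5% on the single autosomes and 43.5% on the pooled autosomes (interval 40.6 to 46.5; Fisher's exact test, p = 0.301). In the other direction 61 of 105 did (58.1%, interval 48.5 to 67.1), against 61.4% to 88.9% on the single autosomes and 69.6% on the pooled autosomes (interval 66.2 to 72.9; Fisher's exact test, p = 0.0243). The 88.9% was that of chromosome I, and without it the second comparison no longer passed, with a ratio of 0.869 (Fisher's exact test, p = 0.0953). The shares differ between directions because the lists differ in length.

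Over the 61 overlapping pairs on X, -log10 q in the replicates had a Spearman rho of 0.703 and a Pearson r of 0.946, and without the strongest pair these were 0.688 and 0.898. Over 491 autosomal pairs they were 0.807 and 0.894. These are descriptions across peaks of the same libraries, and peaks missing from a list do not enter. Replicate 1 gave the smaller q-value in 45 of 61 X pairs (73.8%), and in 80.2% to 92.5% of the pairs on single autosomes. The median -log10 q of the paired peaks was 4.89 in replicate 1 and 3.89 in replicate 2 on X, and 8.18 and 4.55 on the autosomes. The median distance between the centres of paired peaks was 49 bp on X, where 45 of 61 pairs lay within 100 bp, and 62.5 bp on the autosomes. Pairs were formed by overlap, so the peak widths limit this distance in advance. Median widths in replicates 1 and 2 were 330 and 261 bp on X, and 552 and 356 bp on the autosomes. The largest distance on X was 223.5 bp.

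**Figure D5:**
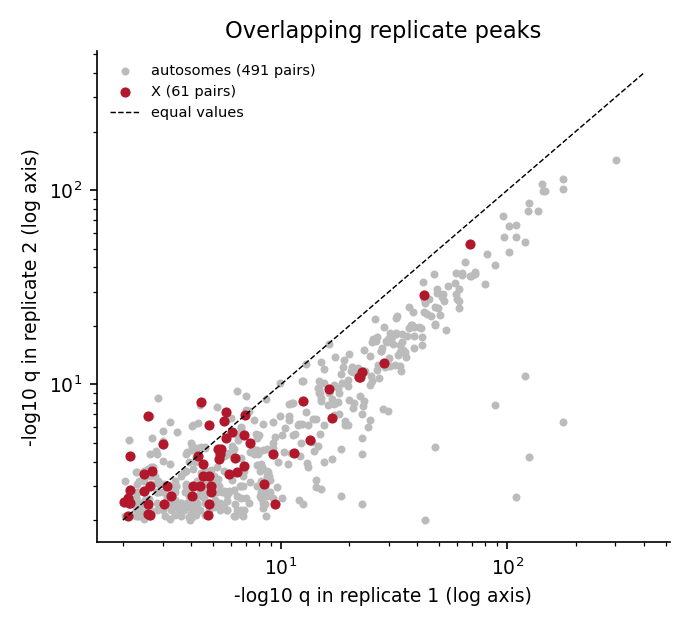
Each point is a pair of overlapping replicate peaks, with -log10 q in replicate 1 (horizontal) and replicate 2 (vertical) on log axes, for 61 pairs on X (red) and 491 on the autosomes (grey). The X pairs follow the autosomal ones but lie mostly at low values, and 45 of the 61 fall below the dashed line of equal values.

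Nearly all replicate peaks on X entered the combined list, with 152 of 157 from replicate 1 (96.8%) and 99 of 105 from replicate 2 (94.3%). On the autosomes these shares were 93.7% and 94.9%. Among the 11 peaks left out, no q-value was under 1e-05, and the smallest were 0.000959 in replicate 1 and 0.00341 in replicate 2. One place on X was listed in both replicates without a combined peak, at 11787126 to 11787378 in replicate 1 (q = 0.00959) and 11787153 to 11787523 in replicate 2 (q = 0.00341). The nearest combined peak was 3166 bp from the latter.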

How the data were processed

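The authors deposited 3 peak lists, for ChIP replicates 1 and 2 and for both combined. Per the file headers and records, peaks were called with PeakSeq on WormBase WS190, and the only score is the q-value of the authors' peak caller. Not given in the sources used here are the aligner, the filters, the control, the depth and how replicates were combined, and input values were not analysed here. A q-value, and with it the number and width of listed peaks, depends on depth.

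Width, gap and overlap were computed from the deposited positions, taken as 1-based and inclusive (Python 3.11.15, scipy 1.17.1). Shares on X and on the pooled autosomes were compared with two-sided Fisher's exact tests, with Benjamini-Hochberg adjustment over the 6 shares of the combined list or the 4 of a replicate list. Overlap between replicates and subsets carry unadjusted p-values. Densities and the left-hand share were tested with exact binomial tests. Intervals cover counting error only. The functions were tested on simulated lists with independently placed peaks, which leave out the relation between neighbouring peaks in the real lists.

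The peaks, limits and tests were chosen with earlier results of these data known. Named were the 12 strongest X peaks found in both replicates, the 5 strongest in neither, peaks over 5 kb, the 3 closest pairs, the 3 largest gaps, the 3 fullest windows and empty ones, and replicate peaks with q under 1e-05 absent from the combined list. The first and last peaks, the strongest not found in both, the runs of 4, the window from 7 to 8 Mb and the absent place at 11787126 were chosen after their values were seen. No sequence of WS190 was used.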

Additional observations from a re-analysis of the deposited data

How the results depend on the processing

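Of 80 alternative values, 73 planned and 7 added after the data were seen, 61 changed neither direction nor call, or for a median stayed inside its interval. The density ratio of X to autosomes ranged from 0.592 to 0.806, and the ratio of shares of strong peaks from 0.296 to 0.771. For peaks of 500 bp or more that ratio ranged from 0.244 to 0.818, and for peaks with a neighbour from 0.337 to 0.700. All passed the threshold of 0.05 in every alternative run. The added runs on subsets of peaks used unadjusted p-values, the largest being 0.0459 (Fisher's exact test, peaks of 500 bp or more among those not strong). The lower and upper values for a single replicate list were 0.667 and 0.692 for density, 0.296 and 0.412 for strong peaks, 0.244 and 0.468 for wide peaks and 0.426 and 0.453 for near neighbours. The excess of peaks shorter than 50 bp no longer passed with q under 0.001 (1.17) or with a single replicate list (1.40 to 1.54). Without chromosome I, the share found in both replicates passed (0.762) and the overlap of replicate 2 with replicate 1 did not (0.869). The former passed in this 1 of its 6 alternatives, and the latter passed in 3 of its 4. The cause was not tested. The median width on X was 237 bp with q under 0.001 and 199 to 200 bp with a single replicate list. The median gap was 47.3 kb and 70.3 to 100.8 kb in the same order, in lists that hold fewer X peaks. The remaining changes of direction concern values next to equality that never passed the test. The left 50% of X held 47.1% with q under 0.001, 49.2% with peaks under 500 bp apart merged, 49.3% without the peak over 100 kb and 46.5% to 49.5% with a single replicate list, and the ratio for peaks found in neither replicate was 0.999 with merged peaks, 0.998 without the widest peak and 0.975 without III. No paired analysis was possible because each comparison is between chromosomes within 1 peak list and not between groups of samples. Depth limits every absence here, since a region just short of the threshold in 1 library counts as missing.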
